A study of Mus musculus with 64 samples.

Results

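A set of 10 genes of inflammasome and necroptosis signalling was followed in adipose tissue of mice with and without *Nampt* in adipocytes: *Zbp1*, *Nlrp3*, *Ripk3*, *Mlkl*, *Casp1*, *Casp4*, *Casp8*, *Casp12*, *Gsdmd* and *Il1b*. They were chosen by name, with earlier results of these data known. All 10 were found by Ensembl identifier among the 52636 genes of the deposited count table. All 10 passed the filter on low counts, which left 20249 genes to test, and none had a count of 0 in any sample. RNA was taken from 2 fat depots of chow-fed male mice aged 2 to 4 mo, the brown (BAT) and the epididymal white (eWAT). Mice were sampled 6, 10, 18 and 22 h after lights on, written as zeitgeber time (ZT). FANKO mice carried the NamptTM1Jtree allele, whose exon 3 is flanked by loxP sites, and Adiponectin-Cre. Their Cre- littermates are called WT here. With 4 samples per depot, genotype and time, there were 64 in all and 16 per depot and genotype. The comparisons asked whether these genes differed between genotypes, depots and times of day.

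Inflammasomes are protein assemblies in which a sensor such as NLRP3 recruits caspase-1, which cleaves pro-interleukin-1β and gasdermin D, a protein that opens pores in the plasma membrane. Caspase-4 of the mouse, also called caspase-11, binds bacterial lipopolysaccharide in the cytosol and cleaves the same gasdermin. Necroptosis is a lytic death in which ZBP1 or RIPK1 engages the kinase RIPK3, which phosphorylates MLKL, and caspase-8 holds this route in check. Macrophages and other myeloid cells express most of these genes, and several are induced by interferon, so adipose tissue carries them in its immune cells as well as in its other cells. Adiponectin-Cre recombines in adipocytes, and the other cells of the tissue keep *Nampt*.

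*Nampt*, the gene of the rate-limiting enzyme of NAD+ salvage, was lower in FANKO samples of both depots. In BAT its level was 720 ± 234 CPM (counts scaled to library size times its TMM factor; mean ± SD, n = 16) in WT and 141 ± 18.8 in FANKO mice, without overlap between the genotypes (lowest WT 479, highest FANKO 186). In eWAT the levels were 168 ± 58.3 and 115 ± 7.57, and the 2 genotypes overlapped, from 112 to 310 in WT and from 101 to 131 in FANKO mice. The fitted differences were -2.31 ± 0.07 log2 units (SE) in BAT and -0.50 ± 0.07 in eWAT, with adjusted p = 1.1e-36 and 4.7e-09 by edgeR. Counts cover the whole gene and not exon 3 alone. *Ucp1*, which marks brown adipocytes, had a median of 4305 CPM in WT BAT and of 0.213 in WT eWAT, and *Adipoq* was read in every sample. Total counts per sample ran from 6117343 to 30544847. The libraries of WT BAT at ZT 18 replicate 4, WT eWAT at ZT 18 replicates 2 and 4 and WT eWAT at ZT 6 replicate 2 correlated least with the mean of the other libraries of their group (r = 0.970 to 0.978 on log2 CPM). Skeletal muscle markers summed to between 0.528 and 421 CPM in WT BAT and between 2.64 and 376 in FANKO BAT. Each test was repeated without those 4 libraries and, apart from that, with muscle and epididymis markers as covariates. Of the results that follow, leaving out the 4 libraries kept the counts of genes called in BAT, between WT depots and in the depot difference, lost *Casp8* in eWAT and added *Casp4* to the rhythmic genes of FANKO eWAT. The covariates kept those BAT and depot counts too. Over all genes they lowered the number rhythmic in FANKO eWAT from 1370 to 1057. Nothing in the labels says that samples came from separate animals, or that a BAT and an eWAT sample came from 1 animal, so p-values measure the spread between these samples.

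*Casp1*, *Casp4* and *Casp12* are neighbours on the plus strand of chromosome 9 in GRCm38, at chr9:5298517-5307265, chr9:5308828-5336783 and chr9:5345430-5373032, with 1562 bases between *Casp1* and *Casp4* and 8646 between *Casp4* and *Casp12*. These caspases are related in sequence, and how reads that match several genes were counted is not given in the sources used here. *Mlkl* lies at chr8:111311797-111338177, *Ripk3* at chr14:55784995-55788865, *Zbp1* at chr2:173206612-173218923 and *Il1b* at chr2:129364570-129371139, all on the minus strand. *Nlrp3* lies at chr11:59541568-59566956, *Casp8* at chr1:58795374-58847503 and *Gsdmd* at chr15:75862327-75867408, all on the plus strand. All 10 are protein-coding. *Il1b* shares 25 exonic bases, 1.31% of its exonic length, with the antisense gene *Il1bos*, and whether strand was used in counting is not given either.

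RefSeq promoters (GRCm38.p6, 250 bases before to 50 after a start) matched 8 of the 10 genes, with 10 promoters between them, and the genes without an entry were *Zbp1* and *Gsdmd*. The promoters of the 3 neighbouring caspase genes and that of *Ripk3* are shown 5′ to 3′ on the strand of the gene, with capitals at every match to 1 of 4 motifs searched on both strands. These genes are examples and were not set apart by their changes. All 10 genes rose in FANKO BAT, and *Zbp1*, *Mlkl* and *Casp8* were called rhythmic in FANKO eWAT as *Ripk3* was. The motifs were the interferon-stimulated response element core (GAAANNGAAA), the gamma-activated site (TTCNNNGAA), an NF-kB pattern (GGGANNNNCC) and the E-box (CACGTG), which do not overlap one another in these sequences. They are chr9:5298267-5298566 for *Casp1*, chr9:5308599-5308898 for *Casp4*, chr9:5345226-5345525 for *Casp12* and chr14:55788808-55789107, on the minus strand, for *Ripk3*.
Casp1: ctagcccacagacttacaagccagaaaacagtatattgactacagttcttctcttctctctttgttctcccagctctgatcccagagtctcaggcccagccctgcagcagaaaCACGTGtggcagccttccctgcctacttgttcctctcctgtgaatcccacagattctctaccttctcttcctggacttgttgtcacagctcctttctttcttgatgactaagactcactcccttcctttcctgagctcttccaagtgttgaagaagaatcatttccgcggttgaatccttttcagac
Casp4: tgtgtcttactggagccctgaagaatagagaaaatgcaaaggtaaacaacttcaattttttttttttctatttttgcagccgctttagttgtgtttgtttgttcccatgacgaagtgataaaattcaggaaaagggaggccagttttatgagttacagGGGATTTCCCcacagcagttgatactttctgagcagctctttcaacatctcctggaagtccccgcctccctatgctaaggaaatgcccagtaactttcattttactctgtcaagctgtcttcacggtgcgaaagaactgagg
Casp12: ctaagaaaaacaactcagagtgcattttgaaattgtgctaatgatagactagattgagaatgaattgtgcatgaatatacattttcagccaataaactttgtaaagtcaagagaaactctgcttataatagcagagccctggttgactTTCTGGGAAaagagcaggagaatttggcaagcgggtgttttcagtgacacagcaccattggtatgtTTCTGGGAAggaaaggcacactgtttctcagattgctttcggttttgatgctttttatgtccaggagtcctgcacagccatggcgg
Ripk3: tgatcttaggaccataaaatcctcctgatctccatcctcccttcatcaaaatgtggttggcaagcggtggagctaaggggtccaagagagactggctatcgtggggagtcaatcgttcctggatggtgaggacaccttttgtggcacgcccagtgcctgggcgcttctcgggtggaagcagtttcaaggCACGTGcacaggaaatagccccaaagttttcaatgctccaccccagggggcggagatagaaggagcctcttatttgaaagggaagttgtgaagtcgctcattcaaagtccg

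*Casp1* and *Ripk3* held an E-box each, at positions -137 to -132 and -61 to -56 from the start. *Casp4* held the NF-kB pattern at -92 to -83 from this start and again in the window of its other RefSeq start, which lies 11 bases on. *Casp12* held the gamma-activated site at -102 to -94 and at -36 to -28. Of the remaining promoters, 1 of the 2 of *Nlrp3* held the NF-kB pattern. Those of *Mlkl* and *Casp8*, which were called rhythmic in FANKO eWAT as *Ripk3* was, and that of *Il1b* held none of the 4 motifs. None of the 10 promoters had the interferon-stimulated response element core in this window. Over all 32851 promoters of the table, 3.44% held that core, 8.3% the gamma-activated site, 20.7% the NF-kB pattern and 7.15% the E-box. A match describes letters and not a bound site.

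In BAT all 10 genes rose in FANKO mice, by 1.2 log2 units (*Casp8*) to 6.96 (*Zbp1*). In the quasi-likelihood test of edgeR each passed a false discovery rate (FDR, by Benjamini-Hochberg over the 20249 genes) of 0.01, with values from 2.4e-40 to 1.8e-17. At that FDR 67.0% of all genes tested differed between the genotypes in BAT and 33.1% were higher in FANKO mice, so a call alone says little of these genes. The median log2 fold change of the 10 was 3.05, and that of all genes tested was 9.7e-05. For all 10 genes the lowest of the 16 FANKO samples lay above the highest of the 16 WT samples, which held for 12.5% of all genes. Mitochondrial genes took 16.8% to 40.7% of the counts in WT BAT and 7.48% to 24.7% in FANKO BAT, and the TMM factors ran from 0.573 to 0.867 and from 0.917 to 1.31. With library size as the only scaling the differences of the 10 ran from 1.80 (*Casp8*) to 7.55 (*Zbp1*), all called, and the median of all genes moved to 0.58. In bulk tissue, more cells of a type and more RNA per cell cannot be told apart.

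Among the sensors, *Zbp1*, whose product binds Z-form nucleic acids, was the most raised. In WT BAT its level ran from 0.148 to 2.68 CPM with a median of 0.712, on counts of 1 to 19, and in FANKO BAT from 50.4 to 141 with a median of 89.2. The lowest FANKO sample was thus 18.8 times the highest WT sample, and the fitted difference was 6.96 ± 0.26 log2 units (SE), place 117 of 20249 by size. *Nlrp3*, the sensor of the best-studied inflammasome, stayed at low levels, from 0.0872 to 1.02 CPM (median 0.418) in WT and from 1.40 to 4.88 (median 3.06) in FANKO BAT. Its difference was 2.75 ± 0.22, and its genotypes were separated by the narrowest margin of the 10, with the lowest FANKO sample 1.37 times the highest WT sample.

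Of the necroptosis effectors, *Mlkl*, the gene of the pore-forming pseudokinase, rose more than *Ripk3*, the gene of its activating kinase. *Mlkl* ran from 1.57 to 4.72 CPM (median 2.90) in WT BAT and from 28.4 to 50.2 (median 38.4) in FANKO BAT, a difference of 3.71 ± 0.11. *Ripk3* ran from 0.593 to 2.97 CPM (median 1.51) in WT and from 4.35 to 9.10 (median 6.85) in FANKO BAT, a difference of 2.17 ± 0.12. The samples of the 2 genotypes were set apart by a factor of 6.02 for *Mlkl* and of 1.47 for *Ripk3*.

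Of the caspase genes, *Casp1* and *Casp4* had the smallest p-values of all 10 genes. *Casp1*, the gene of the caspase that matures interleukin-1β, ran from 0.579 to 2.45 CPM (median 1.79) in WT BAT and from 26.9 to 39.3 (median 33.4) in FANKO BAT. *Casp4* ran from 0.741 to 1.84 CPM (median 1.17) and from 19.7 to 37.9 (median 27.7). Their differences, 4.28 ± 0.11 and 4.53 ± 0.11, were numbers 5 and 6 of 20249 genes by p-value, and in each gene the lowest FANKO sample was over 10 times the highest WT sample. *Casp12*, the adjacent gene, whose product is an enzyme linked to endoplasmic reticulum stress, ran from 2.17 to 6.47 CPM (median 3.43) in WT and from 19.7 to 33.3 (median 24.6) in FANKO BAT, a difference of 2.84 ± 0.10. *Casp8*, the initiator caspase of death receptors, had the highest level per length of the 10 in WT BAT and moved least. It ran from 10.9 to 21.2 CPM (median 17.7) in WT and from 34.4 to 49.1 (median 41.1) in FANKO BAT, a difference of 1.2 ± 0.05, still without overlap.

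The pore gene and the cytokine gene followed. *Gsdmd*, the gene of gasdermin D, varied little between WT BAT samples, from 3.49 to 5.63 CPM (median 4.43), and ran from 15.3 to 36.7 (median 23.8) in FANKO BAT, a difference of 2.42 ± 0.08. *Il1b* was near the limit of counting in WT BAT, at 0.106 to 0.872 CPM (median 0.286) on counts of 1 to 13, and ran from 1.54 to 5.77 (median 3.01) in FANKO BAT, a difference of 3.26 ± 0.25. Both genes were separated between genotypes, *Il1b* by a factor of 1.77 and *Gsdmd* by 2.71.

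**Figure D1:**
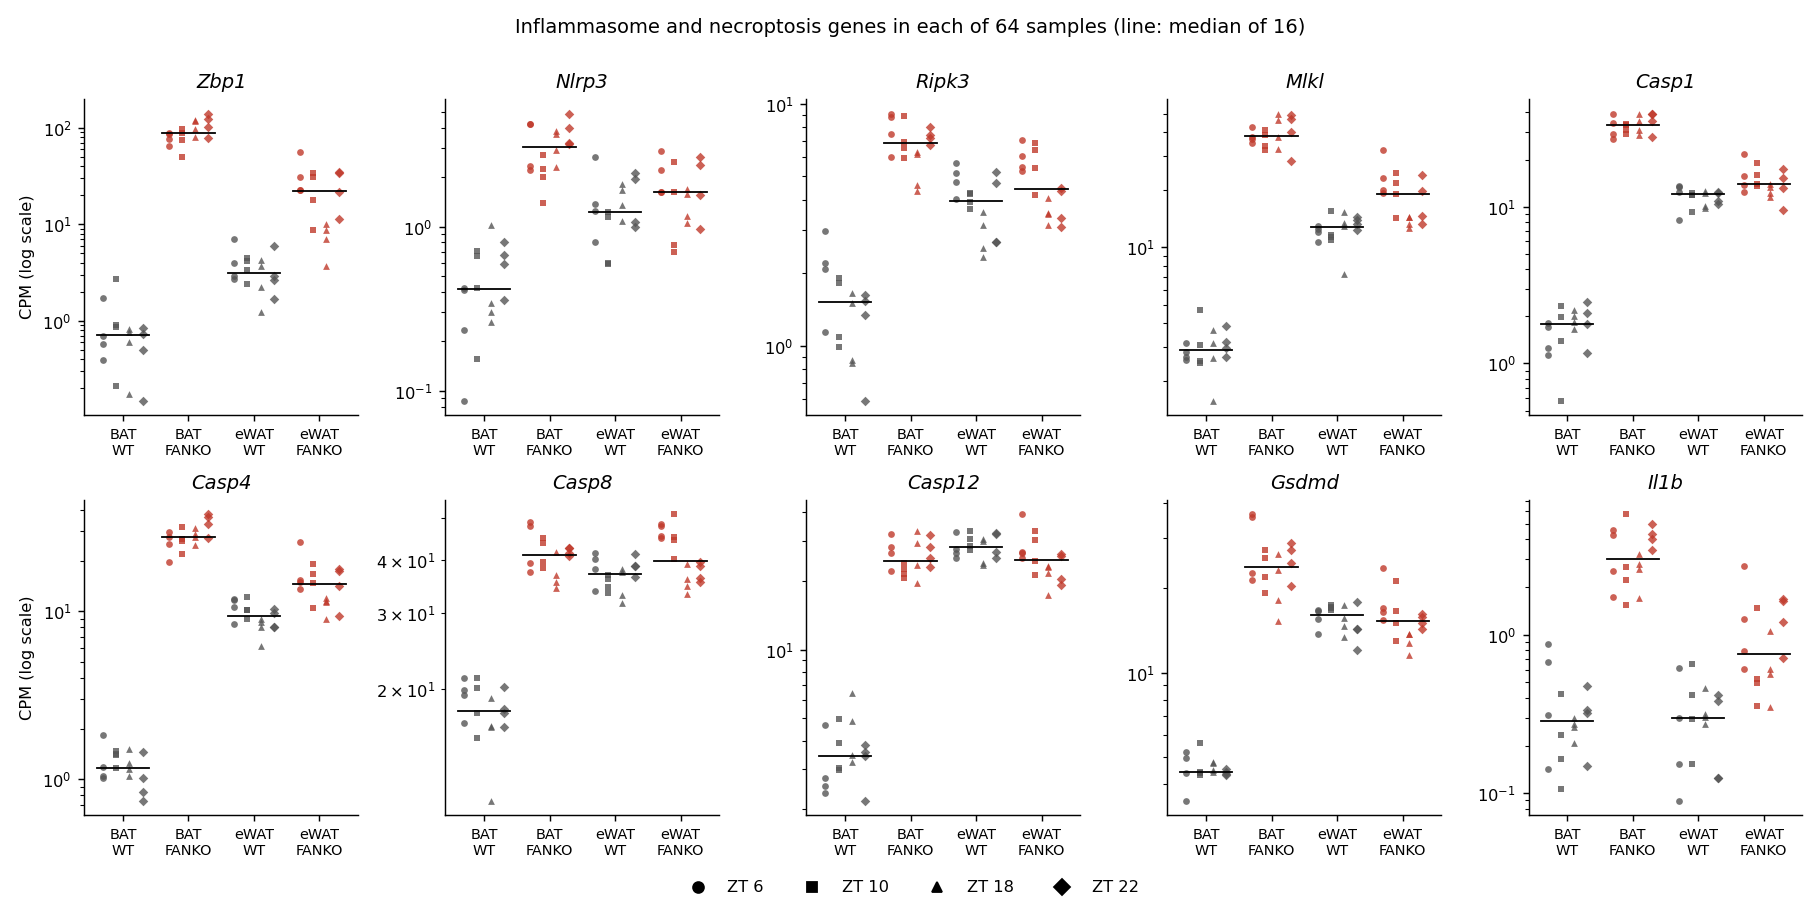
Level of each of the 10 genes in each of 64 samples, in CPM on a log axis, by depot and genotype, with marker shapes for the 4 time points and a line at the median of 16 samples. In BAT every FANKO sample lies above every WT sample for all 10 genes, whereas in eWAT the genotypes overlap for all 10.

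The difference in BAT was seen at every time point. At each of ZT 6, 10, 18 and 22, all 10 genes were higher in FANKO BAT at an FDR below 0.01, against 24.4%, 23.3%, 21.5% and 22.6% of all genes called higher at these times. The fitted differences of *Casp8* lay within 1.17 to 1.24 over the 4 times and those of *Casp1* within 4.13 to 4.43. Those of the genes with low counts ranged wider, from 2.12 to 3.45 for *Nlrp3*, from 2.60 to 3.72 for *Il1b* and from 6.21 to 7.43 for *Zbp1*.

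In eWAT 6 of the 10 genes rose in FANKO mice (*Zbp1*, *Il1b*, *Casp4*, *Mlkl*, *Casp1* and *Casp8*) and none fell at an FDR below 0.01, where 50.3% of all genes tested differed between genotypes and 27.6% were higher. The median log2 fold change of the 10 was 0.32, and that of all genes tested was -0.025. No gene of the 10 was free of overlap between the 16 FANKO and the 16 WT samples, against 4.57% of all genes with every FANKO sample above every WT sample. The call of *Casp8*, at 0.16 ± 0.05 log2 units, was lost in 10 of the 19 alternatives and its direction turned to -0.086 with library size as the only scaling. *Casp1* lost its call in 2 alternatives. TMM factors also differed between genotypes here, from 1.08 to 1.41 in WT and from 0.955 to 1.12 in FANKO eWAT, as did the mitochondrial share, from 3.88% to 10.7% and from 6.11% to 14.6%.

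*Zbp1* again moved most. It ran from 1.23 to 6.995 CPM (median 3.16) in WT eWAT and from 3.67 to 56.6 (median 22.1) in FANKO eWAT, a difference of 2.54 ± 0.20 log2 units (FDR 6.4e-17 by edgeR). Of the 16 FANKO samples, 15 lay above the highest WT sample. *Il1b* ran from 0.0894 to 0.657 CPM (median 0.300) in WT and from 0.352 to 2.71 (median 0.751) in FANKO eWAT, a difference of 1.59 ± 0.25 (FDR 1.3e-07) on counts of 1 to 12 and 3 to 65, with 9 FANKO samples above all WT samples.

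The effectors changed less. *Mlkl* ran from 7.26 to 15.5 CPM (median 12.7) in WT eWAT and from 12.6 to 32.5 (median 19.1) in FANKO eWAT, a difference of 0.56 ± 0.09 (FDR 5.3e-07). *Casp4* ran from 6.20 to 12.2 CPM (median 9.36) and from 9.03 to 25.7 (median 14.4), a difference of 0.61 ± 0.09 (FDR 1.3e-08). *Casp1* ran from 8.21 to 13.5 CPM (median 12.05) and from 9.52 to 21.7 (median 13.9), a difference of 0.35 ± 0.08 (FDR 0.0003). For *Mlkl* 9 FANKO samples, and for *Casp4* and *Casp1* 10 each, lay above all WT samples.

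The other 4 genes did not pass in eWAT. *Ripk3* differed by 0.28 ± 0.10 log2 units (FDR 0.0166), *Nlrp3* by 0.30 ± 0.18 (FDR 0.16), *Casp12* by -0.19 ± 0.08 (FDR 0.0421) and *Gsdmd* by -0.0081 ± 0.073 (FDR 0.934). *Ripk3* passed in 2 alternatives and *Casp12* passed, as lower in FANKO mice, in 6. *Gsdmd*, the most even of these genes, ran from 12.1 to 17.8 CPM in WT and from 11.5 to 23.6 in FANKO eWAT. *Casp12* ran from 23.5 to 33.0 CPM and from 17.5 to 39.4.

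At single time points in eWAT, *Zbp1* was higher in FANKO mice at all 4 times, by 1.40 log2 units at ZT 18 and by 2.61 to 3.03 at the other times. *Mlkl* was called at ZT 6 (0.99) and ZT 10 (0.68), *Casp4* at ZT 6 (0.72) and ZT 22 (0.73), *Il1b* at ZT 6 (2.20) and ZT 22 (2.35) and *Casp8* at ZT 10 (0.35). That made 4, 3, 1 and 3 of 10 genes at ZT 6, 10, 18 and 22, against 27.0%, 24.5%, 13.6% and 20.6% of all genes called in either direction. All these calls of the 10 genes were higher in FANKO mice. The share of all genes called higher at these times is not given here and can be no larger than those shares, so the 2 are not like for like. At ZT 18, *Zbp1* was the only member called. The 11 calls over the 4 times became 6 without replicate 3, 7 without replicate 2, and 6 with library size alone as scaling.

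The difference between genotypes was larger in BAT than in eWAT for all 10 genes, by the test of that difference itself. The depot difference of the log2 fold change was 4.42 ± 0.34 for *Zbp1*, 3.93 ± 0.14 for *Casp1*, 3.92 ± 0.14 for *Casp4*, 3.15 ± 0.14 for *Mlkl* and 3.03 ± 0.13 for *Casp12*. It was smaller for *Nlrp3* (2.45 ± 0.29), *Gsdmd* (2.43 ± 0.11), *Ripk3* (1.89 ± 0.16), *Il1b* (1.66 ± 0.36) and *Casp8* (1.04 ± 0.07). All had an FDR of 5.5e-05 or less by edgeR, where 64.3% of all genes tested passed and 32.2% had the larger value in BAT. The median of the 10 was 2.74, and that of all genes was 0.045. *Casp12* and *Gsdmd* passed as raised in BAT and had fitted values just below 0 in eWAT.

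**Figure D2:**
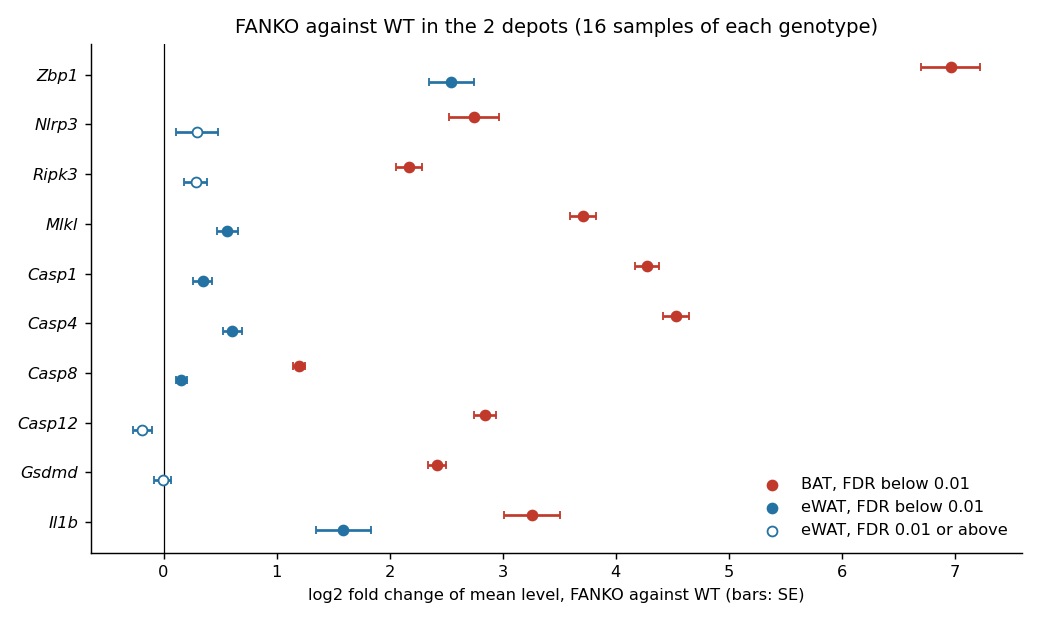
Log2 fold change of the mean level in FANKO against WT mice for each of the 10 genes, with the SE of the fit as bars, from 16 samples of each genotype in each depot. Filled points have an FDR below 0.01, and all 10 genes lie farther to the right in BAT (1.2 to 6.96) than in eWAT (-0.19 to 2.54).

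The depots also differed in WT mice, in which 9 of the 10 genes were lower in BAT than in eWAT. At the same FDR 73.7% of all genes tested differed between depots and 41.1% were lower in BAT. The median log2 difference of the 10 was -1.91, and that of all genes was -0.11. *Casp12*, *Casp4* and *Casp1* had the lowest values, at -2.99 ± 0.10, -2.95 ± 0.12 and -2.74 ± 0.11, followed by *Zbp1* (-2.21 ± 0.31) and *Mlkl* (-2.05 ± 0.11). *Il1b* alone did not pass, at 0.062 ± 0.30 (FDR 0.858 by edgeR). For 6 genes (*Mlkl*, *Casp1*, *Casp4*, *Casp8*, *Casp12* and *Gsdmd*) every WT BAT sample lay below every WT eWAT sample, which held for 15.1% of all genes.

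In FANKO mice the depots overlapped for 9 of the 10 genes. For *Zbp1*, *Mlkl* and *Casp4* the overlap came only from the eWAT library of ZT 6 replicate 3, at 56.6, 32.5 and 25.7 CPM. Their lowest FANKO BAT samples, at 50.4, 28.4 and 19.7 CPM, lay above every other FANKO eWAT sample. The remaining overlapping genes did so through other eWAT libraries as well. None of the 10 genes had all FANKO BAT samples below the FANKO eWAT samples, and *Casp1* had all of them above, at 26.9 to 39.3 CPM in BAT and 9.52 to 21.7 in eWAT, as did 5.18% of all genes. *Casp8* and *Casp12* in FANKO BAT came to 41.0 ± 4.15 and 25.8 ± 4.31 CPM (mean ± SD), beside 41.3 ± 5.53 and 25.3 ± 5.49 in FANKO eWAT. *Zbp1* came to 93.2 ± 23.5 CPM in FANKO BAT and to 22.2 ± 14.1 in FANKO eWAT. The FANKO depots were not tested against each other.

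Compared per kilobase of exonic length, the order of the 10 genes differed between groups. In WT BAT *Casp8* led at 6.16 ± 0.91 CPM per kb (mean ± SD, n = 16), with *Gsdmd* next at 1.92 ± 0.20 and *Mlkl*, *Casp1* and *Casp12* at 1.29 ± 0.30, 1.14 ± 0.33 and 0.947 ± 0.30, within 1 SD of each other from neighbour to neighbour. *Zbp1* was number 8 of 10 there, at 0.223 ± 0.18. In FANKO BAT *Zbp1* was the first at 26.4 ± 6.66, within 1 SD of *Casp1* at 22.1 ± 2.85, and *Casp8* was number 4 at 14.2 ± 1.44. In eWAT *Casp8* led in both genotypes, at 12.7 ± 1.01 in WT and 14.3 ± 1.91 in FANKO mice, followed by *Casp1* at 7.65 ± 1.00 and 9.69 ± 1.99. *Nlrp3* and *Il1b* held the last 2 places in all 4 combinations of depot and genotype.

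Rhythm over the day was tested with a cosine of 24 h, on 2 coefficients in each depot and genotype. In FANKO eWAT 4 of the 10 genes were rhythmic at an FDR below 0.01: *Zbp1* (FDR 0.00019), *Casp8* (0.00143), *Ripk3* (0.00423) and *Mlkl* (0.00496), with *Casp4* just outside (0.0133), where 6.77% of all genes tested were rhythmic. All 4 were highest at ZT 6 and lowest at ZT 18. Direct tests of the difference of rhythms between genotypes called none of the 10 in eWAT, where 1.15% of all genes passed, so the rhythm of FANKO eWAT was not shown to differ from that of WT. At an unadjusted p below 0.05 that test had 4 genes, *Zbp1*, *Mlkl*, *Casp8* and *Il1b*, and DESeq2 and limma-voom called 0 at the adjusted threshold too. The share of all genes below that unadjusted threshold was not counted, so the 4 have no background beside them.

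*Zbp1* in FANKO eWAT fell from 33.2 ± 16.1 CPM (mean ± SD, n = 4) at ZT 6 to 7.37 ± 2.79 at ZT 18 and was 25.5 ± 11.2 at ZT 22. The range of its time point means was 2.14 ± 0.44 log2 units (SE) in FANKO and 0.55 ± 0.49 in WT eWAT. *Mlkl* had a range of 0.76 ± 0.18 in FANKO eWAT, from 23.7 ± 6.12 CPM at ZT 6 to 13.7 ± 0.90 at ZT 18, and of 0.19 ± 0.24 in WT. The WT ranges of both genes were close to their SE. *Casp8* had a range of 0.38 ± 0.06 in FANKO eWAT, from 46.7 ± 1.76 CPM to 35.8 ± 2.43, and of 0.15 ± 0.07 in WT. *Ripk3* had like ranges in the 2 genotypes, 0.72 ± 0.12 in FANKO and 0.75 ± 0.17 in WT eWAT. Both had the highest mean at ZT 6 and the lowest at ZT 18. In WT eWAT the mean log2 CPM of *Zbp1*, *Mlkl* and *Casp8* was lowest at ZT 18 too, and that of *Zbp1* was highest at ZT 6.

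**Figure D3:**
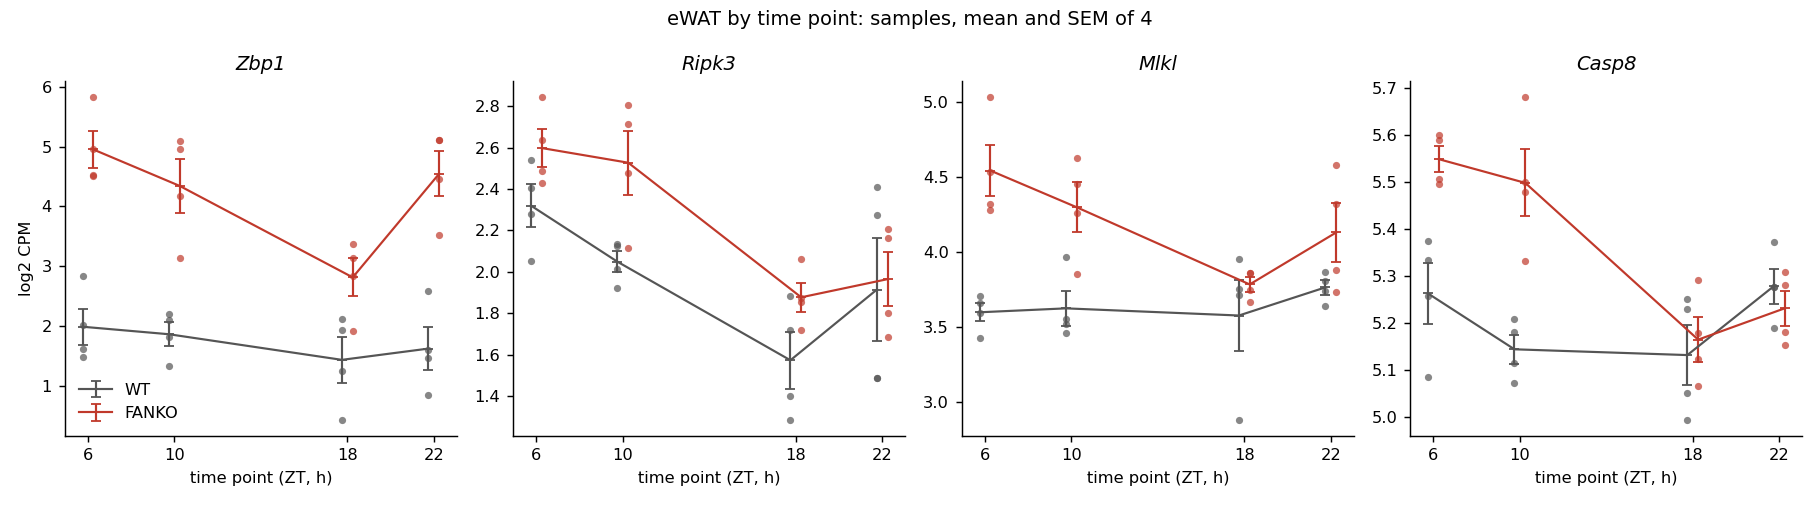
Log2 CPM of *Zbp1*, *Ripk3*, *Mlkl* and *Casp8* in eWAT by time point (ZT, in h), with points for samples, lines through the mean of 4 and bars for the SEM. FANKO means fall from ZT 6 to ZT 18 in all 4 genes, most in *Zbp1*. WT means are also lower at ZT 18 than at ZT 6 in all 4, by most in *Ripk3*.

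The eWAT rhythm calls varied with the samples in the fit. FANKO eWAT at ZT 6 replicate 3 was the highest of the 16 FANKO eWAT samples for 9 of the 10 genes, with *Zbp1* at 56.6 CPM and *Mlkl* at 32.5, and it also had the highest sum of 7 T and NK cell markers, 32.5 CPM where the 16 samples ran from 8.31 up. Without it *Zbp1* and *Casp8* remained rhythmic, and without every replicate numbered 3 none did. Over all genes the count rhythmic in FANKO eWAT went from 1370 to 1071 without that library and to 664 without every replicate numbered 3, so calls were lost well beyond these genes. The fall was not particular to that number, with 701, 633 and 1065 genes rhythmic without replicates numbered 1, 2 and 4. The T and NK cell sum of FANKO eWAT averaged 19.1 ± 8.99 CPM at ZT 6 and 12.1 ± 3.03 at ZT 18, and that of 10 macrophage and monocyte markers 862 ± 167 and 782 ± 76.4. The part of these cells in the time course was not tested.

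In the other 3 combinations none of the 10 genes was called rhythmic by edgeR. The smallest FDR was 0.0351 (*Ripk3*) in WT BAT, 0.0533 (*Gsdmd*) in FANKO BAT and 0.0198 (*Ripk3*) in WT eWAT, where 13.9%, 2.84% and 9.38% of all genes were rhythmic. At an unadjusted p below 0.05 there were 3 genes in WT BAT (*Ripk3*, *Casp8* and *Casp12*), 2 in FANKO BAT (*Ripk3* and *Gsdmd*) and 2 in WT eWAT (*Ripk3* and *Casp4*). The share of all genes at this unadjusted threshold was not counted, so no excess can be read from these numbers. DESeq2 and limma-voom called *Ripk3* in WT eWAT and no other. The difference of rhythms in BAT was called for 0 of 10 by all 3 tools, against 2.76% of all genes by edgeR. In that test 1 gene (*Casp12*) had an unadjusted p below 0.05, again without a count over all genes. *Ripk3* had its highest mean at ZT 6 and its lowest at ZT 18 in all 4 combinations.

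Genes that act with these 10 were taken from 3 lists, whose counts stand beside 33.1% of all genes called higher and 67.0% called in either direction in BAT, and 27.6% and 50.3% in eWAT. Of 19 inflammasome partners, 14 rose and 2 fell in FANKO BAT (median log2 fold change 2.57), and 6 rose and 2 fell in eWAT (median 0.075), where the share that rose was near that of all genes. *Mefv*, the gene of the pyrin sensor, rose by 7.27 ± 0.40 in BAT and 1.62 ± 0.28 in eWAT, and *Il1rn*, the gene of the natural antagonist of the interleukin-1 receptor, by 5.09 ± 0.24 and 2.61 ± 0.25. *Txnip* and *Nek7*, whose products bind NLRP3, fell in BAT by 0.92 ± 0.12 and 0.23 ± 0.04. In eWAT *Il1r1*, the gene of the interleukin-1 receptor, and the cytokine gene *Il18* fell by 1.01 ± 0.07 and 0.48 ± 0.11, and in BAT both rose, by 1.05 ± 0.07 and 3.14 ± 0.15.

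Of 20 partners in necroptosis and death receptor signalling, 14 rose and 2 fell in FANKO BAT (median 0.43, with 33.1% of all genes higher), and 10 rose and 2 fell in eWAT (median 0.094, with 27.6% of all genes higher). The death ligand genes *Fasl* and *Tnf* rose most in BAT, by 5.25 ± 0.36 and 5.01 ± 0.20, and *Fasl* and the death receptor gene *Tnfrsf10b* most in eWAT, by 1.51 ± 0.30 and 1.28 ± 0.08. *Fas*, the receptor gene of Fas ligand, and *Xiap*, an inhibitor of caspases, fell in BAT by 0.37 ± 0.06 and 0.17 ± 0.04. *Ripk1*, the kinase upstream of RIPK3, and *Cflar*, which encodes the inactive partner of caspase-8, fell in eWAT by 0.16 ± 0.05 and 0.21 ± 0.04 and rose in BAT by 0.44 ± 0.05 and 0.17 ± 0.04.

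Of 18 tested genes of interferon signalling and interferon-induced sensors, 14 rose and 2 fell in FANKO BAT (median 2.65, with 33.1% of all genes higher), and 14 rose and none fell in eWAT (median 0.79, with 27.6% of all genes higher). *Ifit1*, an antiviral effector gene, rose by 6.95 ± 0.26 and 3.58 ± 0.22, and *Irf7*, a transcription factor of the interferon response, by 6.70 ± 0.20 and 3.21 ± 0.17. *Ifngr1* and *Irf3* fell in BAT by 0.32 ± 0.08 and 0.29 ± 0.04. The lists were chosen with earlier results of these data known.

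Markers of immune cells moved with the 10 genes in BAT, where 33.1% of all genes were called higher and 67.0% in either direction. Of 10 macrophage and monocyte markers, 9 rose and *Cd14* fell in FANKO BAT (median log2 fold change 3.39), and their summed level ran from 112 to 206 CPM in WT and from 605 to 1420 in FANKO BAT. The 7 T and NK cell markers all rose, with sums of 0.872 to 3.70 and 46.9 to 142 CPM, as did 4 of 5 dendritic cell and 4 of 4 B cell markers. The other dendritic cell marker, *Zbtb46*, fell, from a median of 36.6 CPM in WT to 27.6 in FANKO BAT. Of 7 neutrophil markers 3 passed the filter and 2 of these rose (median 1.49), with sums over all 7 of 1.08 to 2.88 CPM in WT and 9.75 to 23.7 in FANKO BAT. Most of that sum was *Csf3r*, a receptor gene, with a median of 0.986 CPM in WT and 13.5 in FANKO BAT, while the defining marker *Ly6g* was at 0 in 16 of 16 WT and 14 of 16 FANKO BAT samples. Of 6 adipocyte markers 5 fell. The part of these cells in the BAT differences of the 10 genes was not tested.

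In eWAT, where 27.6% of all genes were called higher and 50.3% in either direction, the marker lists moved apart. The macrophage and monocyte markers were 3 higher, 2 lower and 5 not called, with sums of 657 to 958 CPM in WT and 619 to 1095 in FANKO mice, while 6 of 7 T and NK cell markers rose, with sums of 2.81 to 9.89 and 8.31 to 32.5. Dendritic cell markers rose in 4 of 5 and B cell markers fell in 4 of 4. The summed level of the 10 inflammasome and necroptosis genes ran from 104 to 137 CPM in WT eWAT and from 108 to 261 in FANKO eWAT, beside 25.3 to 39.5 and 224 to 376 in BAT. The macrophage sums of FANKO BAT overlapped those of eWAT in both genotypes. The sums of the 10 genes in FANKO BAT passed those of every WT eWAT sample. They overlapped those of FANKO eWAT only through ZT 6, where the highest eWAT sum was 261 CPM and the mean 194 ± 45.3 (SD, n = 4). At ZT 10, 18 and 22 the highest FANKO eWAT sums were 209, 126 and 181 CPM, below the lowest FANKO BAT sum of 224. Over 16 samples the means were 299 ± 40.8 CPM in FANKO BAT and 160 ± 40.1 in FANKO eWAT. The part of macrophages in these sums was not tested. Whether T and NK cells take part in the eWAT rise of *Zbp1* was not tested.

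**Figure D4:**
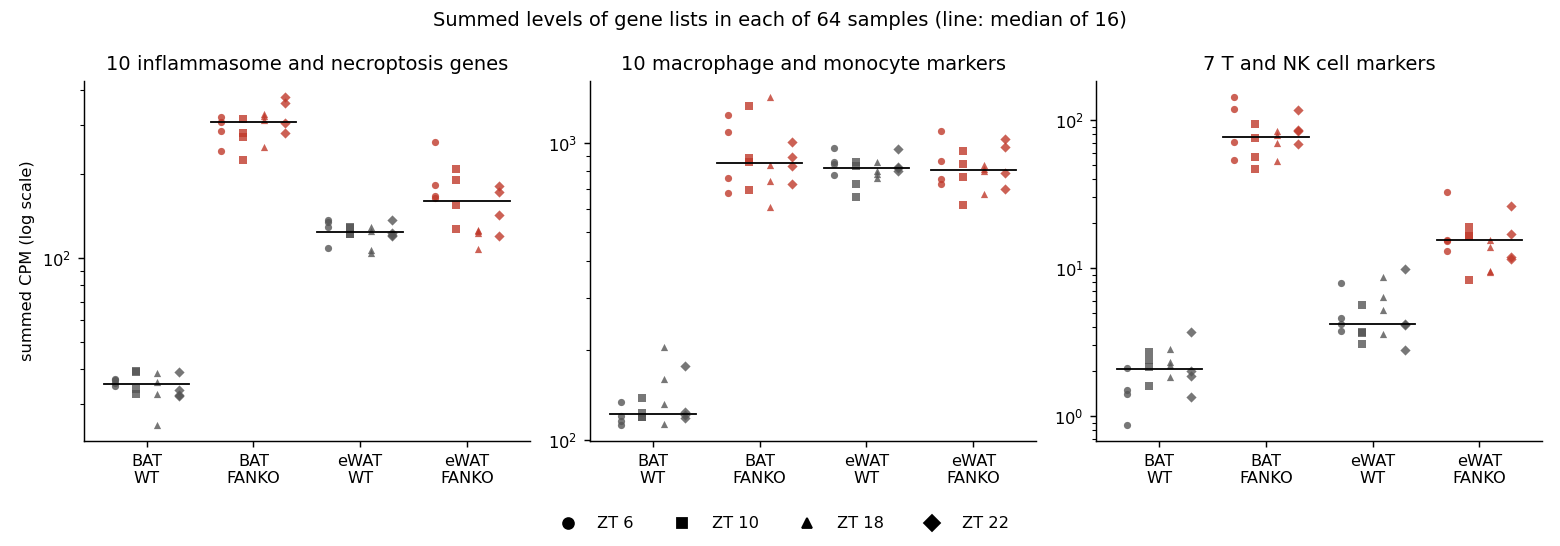
Summed CPM, on log axes, of the 10 genes, of 10 macrophage and monocyte markers and of 7 T and NK cell markers in each of 64 samples, with lines at the median of 16 samples. Medians rise from WT to FANKO BAT in all 3 panels, and in eWAT the macrophage and monocyte medians are alike (825 and 811). Single markers of that list moved both ways in FANKO eWAT, with 3 higher and 2 lower at an FDR below 0.01.

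Across the means of the 16 groups the 10 genes followed one another, with a Pearson r of log2 CPM between 0.44 and 0.99 over the 45 pairs and a median of 0.92. These means share their libraries among genes and span both depots and genotypes, so r is a description of the pattern. Among the 20249 genes tested, those most like *Zbp1* were *Fcgr1* (r = 0.997) and *Oas1g* (0.996). Most like *Casp1* were *Nckap1l* and *Itgb2* (0.997 each), and most like *Casp4* were *Clec4a3* and *Cd86* (0.996 each). *Mlkl* was most like *Tyrobp* (0.996) and *Cd53* (0.995), *Gsdmd* like *Camk1d* (0.996) and *Btk* (0.995) and *Casp12* like *Cfb* (0.996) and *Frmd4b* (0.992). The values were lower for *Ripk3* with *Igsf9* and *Chaf1b* (0.979 and 0.978), *Nlrp3* with *Mmgt2* and *Lrrc25* (0.981 and 0.974), *Il1b* with Gm47242 and *Il12b* (0.981 and 0.978) and *Casp8* with ENSMUSG00000092486 and *Znf41-ps* (0.986 and 0.985).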

How the data were processed

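RNA sequencing of BAT and eWAT from WT and FANKO mice gave 64 samples. The authors made stranded total RNA libraries after ribosomal RNA depletion, sequenced 38-bp read pairs, aligned them with STAR 2.5.3a to GRCm38.p5 and deposited whole-number counts per gene from featureCounts 1.5.3, without normalization. Genes were kept by edgeR's filterByExpr (minimum count 10), scaled by TMM and fitted over all samples by quasi-likelihood with 3 coefficients (mean level, cosine, sine) for each depot and genotype, and with a mean per group for single time points (edgeR 4.0.16, limma 3.58.1 and DESeq2 1.42.0 in R 4.3.3). P values were adjusted by Benjamini-Hochberg over 20249 genes, with an FDR threshold of 0.01. Log2 CPM used a prior count of 2. Symbols and exonic lengths came from GENCODE M21. Figures used Python 3.11.15 and matplotlib 3.10.9. The fits were tested on simulated data. Alternatives were other tools, scalings, filters, designs and left-out samples. The 10 genes and all lists were chosen with earlier results of these data known. Named genes were these 10, *Nampt*, the 2 largest called rises and falls of each list in each depot, and the 2 genes most like each of the 10. Total counts of 6117343 to 30544847 per sample limit the precision of *Zbp1*, *Nlrp3* and *Il1b*, with counts down to 1 in WT samples.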

Additional observations from a re-analysis of the deposited data

Results flagged for a closer look

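For all 10 genes the log2 difference between FANKO and WT mice was larger in BAT than in eWAT by the test of that difference in edgeR, at 4.42 for *Zbp1*, 1.89 for *Ripk3*, 3.15 for *Mlkl*, 3.93 for *Casp1*, 3.92 for *Casp4*, 1.04 for *Casp8*, 3.03 for *Casp12*, 2.43 for *Gsdmd*, 2.45 for *Nlrp3* and 1.66 for *Il1b*. In 3 cases a sample stood apart from the other 3 of their group. *Casp1* was 9.25 CPM in WT eWAT at ZT 10 replicate 4, where the others ran from 11.8 to 12.2. *Casp12* was 39.4 CPM in FANKO eWAT at ZT 6 replicate 3, where the others ran from 25.3 to 26.8. *Gsdmd* was 5.63 CPM in WT BAT at ZT 10 replicate 3, where the others ran from 4.33 to 4.43. Chance sets about 1 in 20 groups apart in this way, or 8 of the 160 looked at.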

How the results depend on the processing

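All 10 genes stayed called in BAT, and in the test of the depot difference, under every alternative that could be run, and 9 stayed called in the WT depot comparison. The count in eWAT ran from 5 to 8, *Zbp1*, *Il1b*, *Casp4* and *Mlkl* being called throughout. Of 4 rhythmic genes in FANKO eWAT, 2 were called with library size alone (*Mlkl* and *Zbp1*), 2 with time point as a factor (*Casp8* and *Zbp1*), 0 without the 8 libraries of highest lymphocyte markers, and 0 to 4 when each replicate number was left out. *Ripk3* made 1 rhythmic gene in WT eWAT by DESeq2, by limma-voom and at an FDR of 0.05, and 1 in WT BAT at an FDR of 0.05. The rhythm difference in eWAT had 0 to 1 call without a replicate number, *Zbp1* without replicate 4. The 11 single-time-point calls in eWAT became 6 with library size alone and 6 to 10 without a replicate number. In these cases the cause was not tested. With library size alone the median of all genes moved to 0.58 in BAT and to -0.27 in eWAT, and *Casp8* in eWAT to -0.086. *Gsdmd* in eWAT, never called, ran from -0.12 to 0.036 when each replicate number was left out and turned to 0.0067 without the 8 libraries. Sets of left-out libraries were chosen after seeing the data. A replicate block left 10 calls in BAT, 6 in eWAT, 10 for the depot difference, 9 between WT depots, 4 rhythmic genes in FANKO eWAT and 0 elsewhere, and 40 and 11 single-time-point calls. The labels do not say what a replicate number marks, and whether equal numbers pair the samples was not settled. Deviations correlated over 0.1 in 23 of 32 same-numbered pairs of genotypes (median r = 0.17), including all 4 pairs of BAT at ZT 6, 18 and 22, and in 18 of 32 pairs of depots, and 24 and 15 of 32 correlated best with their own number. Each sample was compared with the 4 of the other group, so chance alone favours its own number in 1 of 4. Both counts lie above that share, and the main fits took no account of the replicate number. Depth limited *Zbp1*, *Nlrp3* and *Il1b*, with counts down to 1.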
